A study of Mus musculus with 9 samples.

Results

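The genes described here encode the muscarinic acetylcholine receptors and the receptors for dopamine, noradrenaline, serotonin and histamine, through which diffuse modulatory inputs act on neurons. Of the 30 genes listed, 27 had an entry among the 32787 of the count table. They were chosen by receptor family and not by their values, though earlier results of these data were known. Chrm4, Adra1d and Adra2b had no entry and were not analysed here. The question was which of these receptors GABAergic neurons of the developing mouse ventral midbrain expressed, in which of their molecular classes, and whether stage or co-labelling with a dopaminergic reporter went with a difference.

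Single cells were sorted from mice carrying VGAT-Cre:Ai14:Pitx3-GFP. Here tdTomato marks every cell that has expressed Cre from the vesicular GABA transporter gene (Slc32a1) at any time, and GFP marks cells that use the dopaminergic transcription factor gene Pitx3. All cells of all groups carried these 3 alleles and the sources used here name no animal for a plate, so each plate was taken as 1 sample. The 9 plates of 383 or 384 wells fell into 4 groups by age and sort. VGAT cells (tdTomato+) came from 4 plates at E16.5 with 1026 kept cells and from 3 plates at P0.5 with 434 kept cells. VGAT+Pitx3 cells (tdTomato+ and GFP+) came from 1 plate at each age, with 304 kept cells at E16.5 and 271 at P0.5. Kept cells summed to between 1435919 and 5408710 counts a plate, with medians of 7043 to 33272 counts a cell. Where a gene had no count on a plate, a level of up to 2.09 CPM (counts per 1000000 counts of a plate) on the shallowest plate could not be told from 0, with 3 counts as the limit.

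Cell names in the table carried 2 plate labels, and these 2 did not match for 6 of the 9 plates, on 4 of them in the stage and on 4 in the sort, with VGAT E16.5 replicate 4 and VGAT P0.5 replicate 3 in both. The first label was used because it matched the sample titles. Among the VGAT plates both labels gave the same stage for E16.5 replicates 1 and 2 and P0.5 replicate 2. The sort could be checked on the counts: Pitx3 stood at 147 and 78.0 CPM on the VGAT+Pitx3 plates and at most 0.380 on the VGAT plates. The stage could not be checked in that way. Slc32a1 was found on every plate, at 158 to 325 CPM, and summed dopaminergic markers (6 genes) at 2483 and 3268 on the VGAT+Pitx3 plates against 61.0 to 141 on the VGAT plates. Gad1, which encodes a GABA-synthesising enzyme, stood at 796 to 1210 CPM on the VGAT plates but at only 14.5 and 10.3 on the VGAT+Pitx3 plates, where its paralogue Gad2 stood at 936 and 1045. Markers of serotonergic, noradrenergic, histaminergic and cholinergic neurons summed to at most 3.50, 0.876, 7.01 and 8.33 CPM on any plate. Summed astrocyte markers (4 genes) reached 121 CPM on VGAT P0.5 replicate 2, 27.1 and 61.0 on the VGAT+Pitx3 plates and at most 5.24 on the others.

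All but one of these receptors are 7-helix proteins that act through G proteins. Receptors of the Gq class (Chrm1, Chrm3, Chrm5, Adra1a, Adra1b, Htr2a, Htr2c, Hrh1) activate phospholipase C and usually raise excitability, whereas those of the Gi class (Chrm2, Adra2a, Adra2c, Htr1a, Htr1b, Htr1d, Htr1f, Htr5a, Htr5b, Drd3, Drd4, Hrh3) lower cyclic AMP and open inwardly rectifying potassium channels. Receptors of the Gs class (Adrb1, Htr4, Htr7, Drd1, Drd5, Hrh2) raise cyclic AMP. Htr3a is the exception, a serotonin-gated cation channel. In the adult midbrain, cholinergic fibres of the pontine tegmentum and serotonergic fibres of the raphe reach both the GABAergic neurons of the substantia nigra pars reticulata and the dopaminergic neurons beside them, Htr2c is known from nigral and tegmental GABAergic neurons, and Chrm5 is the muscarinic receptor best known from dopaminergic neurons.

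Promoters of 5 genes are shown because the differences between cell classes and sorts described below turned on them: Htr2c, Chrm3 and Chrm2 between marker classes, Htr7 in Otx2 cells and Chrm5 in the VGAT+Pitx3 sort. Each runs 5′ to 3′ on the gene's own strand from 250 bases before to 50 bases after a RefSeq start site (GRCm38.p6), at chrX:146962263-146962562 (+ strand) for Htr2c, chr13:10360754-10361053 (− strand) for Chrm3, chr6:36387834-36388133 (+ strand) for Chrm2, chr19:36057311-36057610 (− strand) for Htr7 and chr2:112480768-112481067 (− strand) for Chrm5. Capitals mark a match to one of the 5 motifs searched.
Htr2c: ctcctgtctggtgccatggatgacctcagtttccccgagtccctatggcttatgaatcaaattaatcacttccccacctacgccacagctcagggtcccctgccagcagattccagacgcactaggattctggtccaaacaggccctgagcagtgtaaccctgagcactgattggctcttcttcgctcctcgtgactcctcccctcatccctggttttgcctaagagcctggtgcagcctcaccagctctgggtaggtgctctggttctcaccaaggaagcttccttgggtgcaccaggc
Chrm3: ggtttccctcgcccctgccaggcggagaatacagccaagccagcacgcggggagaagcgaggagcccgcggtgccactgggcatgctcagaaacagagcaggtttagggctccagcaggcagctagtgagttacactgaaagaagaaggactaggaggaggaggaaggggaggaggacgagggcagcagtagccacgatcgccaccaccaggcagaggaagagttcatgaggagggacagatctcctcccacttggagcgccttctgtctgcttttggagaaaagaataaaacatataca
Chrm2: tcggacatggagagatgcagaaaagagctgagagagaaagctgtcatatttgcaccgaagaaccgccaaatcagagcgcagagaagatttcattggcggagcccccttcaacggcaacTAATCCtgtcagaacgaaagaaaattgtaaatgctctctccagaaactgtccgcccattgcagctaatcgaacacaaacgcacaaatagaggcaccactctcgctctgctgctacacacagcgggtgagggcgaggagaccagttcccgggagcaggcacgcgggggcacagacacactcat
Htr7: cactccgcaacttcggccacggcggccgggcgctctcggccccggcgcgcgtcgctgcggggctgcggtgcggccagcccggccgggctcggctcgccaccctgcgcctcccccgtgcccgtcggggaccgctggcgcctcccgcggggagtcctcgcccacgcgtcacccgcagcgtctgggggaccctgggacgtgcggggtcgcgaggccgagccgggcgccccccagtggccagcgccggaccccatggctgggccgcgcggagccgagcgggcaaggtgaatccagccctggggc
Chrm5: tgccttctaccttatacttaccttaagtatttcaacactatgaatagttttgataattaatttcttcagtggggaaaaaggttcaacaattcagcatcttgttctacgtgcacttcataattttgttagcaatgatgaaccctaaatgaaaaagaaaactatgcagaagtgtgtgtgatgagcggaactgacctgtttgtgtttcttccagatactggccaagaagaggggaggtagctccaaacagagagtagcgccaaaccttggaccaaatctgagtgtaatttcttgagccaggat
The RefSeq promoter table held entries for 22 of the 27 genes, 29 windows in all. On both strands, the windows were searched for GATAAG (the site of GATA factors, which specify midbrain GABAergic neurons), TAATCC (bound by bicoid-type homeobox factors such as Otx2), AAAGGTCA (the Nr4a site), TGACGTCA (the cyclic AMP response element) and TATAAA (the TATA box). TAATCC occurred in 1 of the 29 windows, that of Chrm2, and in 7.06% of all 32851 promoters of this length. GATAAG occurred in 3 windows, of Drd3 and Hrh1, against 7.44% of all promoters. TATAAA occurred in 1 window, of Adra2a, against 13.6% of all, and the other two motifs in 0 windows, against 1.51% of all for AAAGGTCA and 1.79% for TGACGTCA. Base composition differed widely among the 5 windows shown, from 39.0% G and C for Chrm5 to 81.0% for Htr7, around a median of 58.0% for the 29 windows and 52.7% for all promoters.

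Muscarinic Chrm3 and Chrm2 were the receptors found in the most VGAT cells. With each cell thinned to 4000 counts, a Chrm3 count was present in 29.9% ± 5.09 of VGAT cells (SD, n = 7 plates) and a Chrm2 count in 28.0% ± 6.50. Serotonin receptor genes Htr2c and Htr7 followed with 13.7% ± 4.09 and 11.7% ± 2.12 of VGAT cells. On the VGAT+Pitx3 P0.5 plate Htr2c was found in 28.1% of cells, against 24.9% for Chrm2 and 24.5% for Chrm3. Adrenergic Adra1b reached 9.70% and 11.6% of cells on the 2 VGAT+Pitx3 plates. These 5 genes were the ones found in at least 10% of cells of a sort on average, and unthinned cells raised that number to 11. A thinned cell held counts of 1.06 to 1.65 of the 27 receptor genes on average over plates, and 11.6 to 36.1% of cells held none. These shares count cells with a captured transcript and not cells that express the gene.

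**Figure D1:**
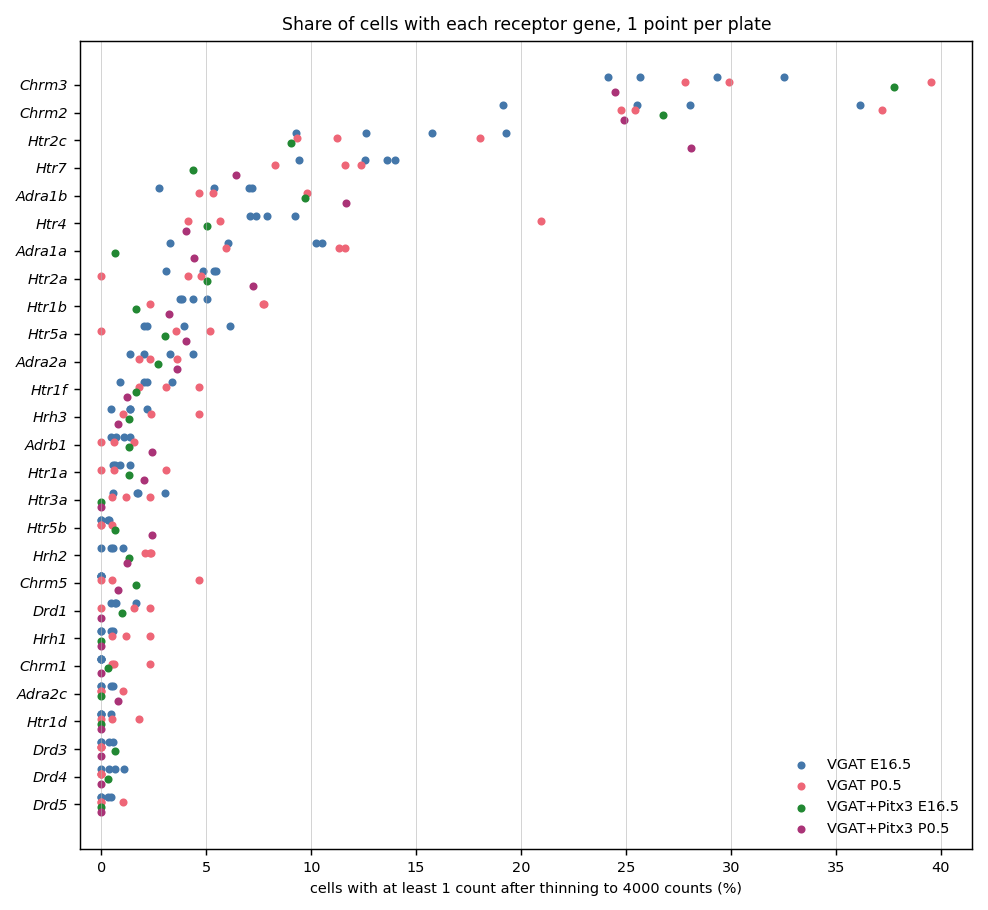
Share of cells with at least 1 count of each of the 27 receptor genes (percent, cells thinned to 4000 counts), with 1 point per plate and colours for the 4 groups of age and sort. Chrm3 and Chrm2 were found in 19.1 to 39.5% of cells on every VGAT plate, while most of the other genes stayed under 10%.

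Much of this signal came from introns. Intronic and exonic counts of a gene were deposited apart, and over all plates 95.4% of Chrm3 counts, 92.7% of Htr1f, 89.7% of Htr4, 87.7% of Adra1a, 79.3% of Chrm2 and 69.8% of Htr2c counts were intronic, against 26.0% over all genes. Htr2a with 34.3%, Adra1b with 29.9% and Htr7 with 25.1% were closer to the share of all genes. The 8 genes with more than 50% intronic counts were 44052 to 485362 bases long, and the 11 with no intronic count were 1599 to 19799 bases long. Chrm3 (chr13:9875486-10360847, − strand, GRCm38) is the longest of them, and Chrm2 (chr6:36388084-36528414, + strand) and Htr2c (chrX:146962513-147197277, + strand) also consist mostly of intron. Chrm2, Chrm3, Htr1b and Htr3a overlap annotated genes on the opposite strand (9330158H04Rik, Gm26861 and Gm47406, D430036J16Rik and Gm32335), and whether counting used strand is not given in the sources used here. Chrm1, Drd5, Htr5b, Hrh2 and Hrh3 also overlap opposite-strand genes. On the same strand, annotated genes overlap Htr2c (8), Chrm3 (4), Chrm2 (1) and Drd3 (1). Their part in the counts was not tested.

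**Figure D2:**
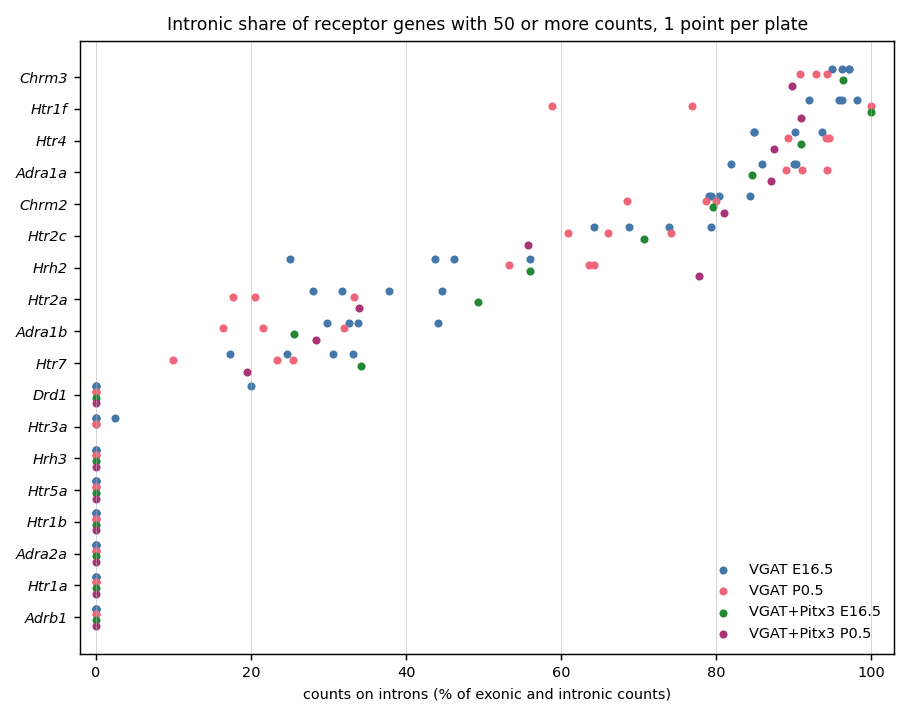
Intronic share of the counts (percent) of the 18 receptor genes with at least 50 counts in all, with 1 point per plate coloured by group. Chrm3 lay between 89.8 and 97.2% on all 9 plates, far from Htr7 at 9.90 to 34.2%.

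Between the VGAT+Pitx3 and VGAT sorts 6 receptor genes passed the test. Adra1b was higher in VGAT+Pitx3 cells, and Adra1a, Htr1b and Htr7 were lower. Chrm5, higher, and Htr3a, lower, had most or all of their counts in 1 sort. Of 20 receptor genes tested, 6 passed an adjusted p of 0.05 in edgeR's quasi-likelihood test with stage as a covariate, while 8.93% of all 14624 genes tested did. The receptor genes' median difference was -0.05 on the log2 scale against 0.00 over all genes. With either VGAT+Pitx3 plate left out the other is 1 sample, which is then assumed to vary like the VGAT plates. Without the E16.5 plate Htr1b passed, Chrm5 was not tested, the other 4 receptor genes did not pass, and 625 genes passed in place of 1306. Without the P0.5 plate Adra1b and Htr3a did not pass. All 6 genes kept their direction in every alternative that tested them. Chrm5 and Htr3a passed the filter on low counts only through the sort in which they were high. The count of 6 includes them, and their calls and p-values lend it no support. Each of these calls held when the 34 cells with counts of 3 or more glial or vascular markers were left out. Markers of other cell types differed as well: summed glutamatergic markers (3 genes) stood at 1.90 to 23.9 CPM on the VGAT plates and at 108 and 210 on the VGAT+Pitx3 plates, with 1 gene past the threshold, and summed radial glia markers (3 genes) at 32.3 to 302 against 202 and 140, also with 1 gene past it. Summed cholinergic markers (3 genes) stood at 0.793 to 8.33 against 3.84 to 4.04, with Slc5a7 past it as higher (log2 difference 1.74 ± 0.50). Their part in the result was not tested. In thinned cells Adra1a was found in 8.42% ± 3.29 of VGAT cells (SD, n = 7 plates) against 0.669 and 4.42% on the VGAT+Pitx3 plates, Htr7 in 11.7% ± 2.12 against 4.35 and 6.43%, and Adra1b in 6.01% ± 2.24 against 9.70 and 11.6%. The VGAT plates overlapped with these shares for Adra1a (3.28 to 11.6%) and Adra1b (2.73 to 9.79%) but not for Htr7 (8.28 to 14.0%), and Chrm5 was found in 0.738% ± 1.74 of VGAT cells against 1.67 and 0.803%, with 0 to 4.65% on the VGAT plates.

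The 2 α1-adrenergic receptors, both Gq-coupled, changed in opposite directions. Adra1a (chr14:66635251-66771168, + strand) stood at 22.4, 34.6, 23.6 and 28.6 CPM on the VGAT E16.5 plates, 35.7, 25 and 29.2 on the VGAT P0.5 plates, and 2.94 and 13.9 on the VGAT+Pitx3 plates at E16.5 and P0.5. Both VGAT+Pitx3 plates lay under every VGAT plate, for a log2 difference of -2.02 ± 0.37 (SE, adjusted p = 0.00210). Without the VGAT+Pitx3 E16.5 plate the difference was -1.11 and did not pass, without the P0.5 plate it was -3.21, and with exonic counts alone the call was lost. Adra1b (chr11:43774606-43901210, − strand) stood at 11.6, 19.5, 13.5 and 22.0 CPM, then 16.8, 30.6 and 23.1, and at 32.8 and 42.6 on the VGAT+Pitx3 plates. Both VGAT+Pitx3 values lay above all 7 VGAT values (log2 difference 0.92 ± 0.23, adjusted p = 0.0192), and the call was lost without either VGAT+Pitx3 plate, while the difference stayed between 0.84 and 1.41 over the alternatives. Taken per plate, Adra1a made up 45.0 to 67.9% of the counts of both genes in VGAT cells (mean 59.8% ± 7.98, SD, n = 7), 8.23% in VGAT+Pitx3 cells at E16.5 (95% Clopper-Pearson interval 4.45 to 13.7%) and 24.6% at P0.5 (17.4 to 33.1%), intervals that cover counting error only. The remaining adrenergic genes differed less: Adra2a, an inhibitory receptor of noradrenergic terminals and their targets, ranged from 5.13 to 12.9 CPM in VGAT cells and stood at 7.01 and 13.0 in VGAT+Pitx3 cells.

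Of the muscarinic genes, Chrm5 was found mostly in the VGAT+Pitx3 sort. It had 21 counts (4.75 CPM) and 7 counts (3.14 CPM) on the VGAT+Pitx3 plates at E16.5 and P0.5, and 1, 0, 0 and 0 counts on the VGAT E16.5 plates and 3, 2 and 0 on the VGAT P0.5 plates. The 28 counts against 6 gave a log2 difference of 3.87 ± 0.88 (adjusted p = 0.0103), on few counts, and 5.83 without the VGAT+Pitx3 P0.5 plate. Chrm5 passed the filter on low counts only through the VGAT+Pitx3 plates, so this p-value is no support for the difference. Chrm2 and Chrm3, in contrast, overlapped between the sorts. Chrm2 stood at 123, 135, 142 and 256 CPM on the VGAT E16.5 plates, at 178, 129.99 and 99.0 on the VGAT P0.5 plates and at 139.7 and 146 on the VGAT+Pitx3 plates. For Chrm3 these values were 153, 126, 241 and 178, then 213, 176 and 156, then 243 and 145. Their log2 differences between the sorts were -0.06 for Chrm2 and 0.13 for Chrm3. Chrm1, a cortical Gq receptor, did not exceed 4.71 CPM on any plate.

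Of the serotonin receptors, Htr1b, Htr7 and Htr3a were lower in VGAT+Pitx3 cells. Htr1b, a Gi-coupled receptor of axon terminals, stood at 12.8, 14.2, 13.3 and 12.3 CPM on the VGAT E16.5 plates, 16.1, 16.7 and 20.4 on the VGAT P0.5 plates and 5.43 and 7.18 on the VGAT+Pitx3 plates (log2 difference -1.30 ± 0.23, adjusted p = 0.00159). It was the only one of these 6 calls that held under every alternative run. Htr7, a Gs-coupled receptor, stood at 29.8, 40.2, 28.7 and 36.9, then at 40.4, 32.8 and 29.5, and at 17.2 and 18.4 in VGAT+Pitx3 cells, again with no overlap (log2 difference -0.94 ± 0.20, adjusted p = 0.00599, and -1.04 to -0.88 over the alternatives). Htr3a had 124 counts on the VGAT plates, with 0.739, 5.24, 7.61 and 3.77 CPM at E16.5 and 3.36, 1.11 and 7.88 at P0.5, and 0 counts on both VGAT+Pitx3 plates. Taking 3 counts over both plates as the limit of a 0, it was at least 9.41-fold lower there (adjusted p = 0.0216), a call lost without either VGAT+Pitx3 plate. Htr3a passed the filter on low counts only through the VGAT plates, so this p-value is no support for the difference. Htr4 (15.6 to 34.3 CPM in VGAT cells, 12.4 and 14.4 in VGAT+Pitx3 cells) and Htr1f (4.68 to 14.1 against 3.17 and 4.93) were lower without passing the test, at adjusted p = 0.164 and 0.245. Htr5b did not pass the filter on low counts for the test of sort. It had 13 counts on the 7 VGAT plates (0 to 1.46 CPM) and 11 on each VGAT+Pitx3 plate (2.49 and 4.93 CPM), with no overlap.

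**Figure D3:**
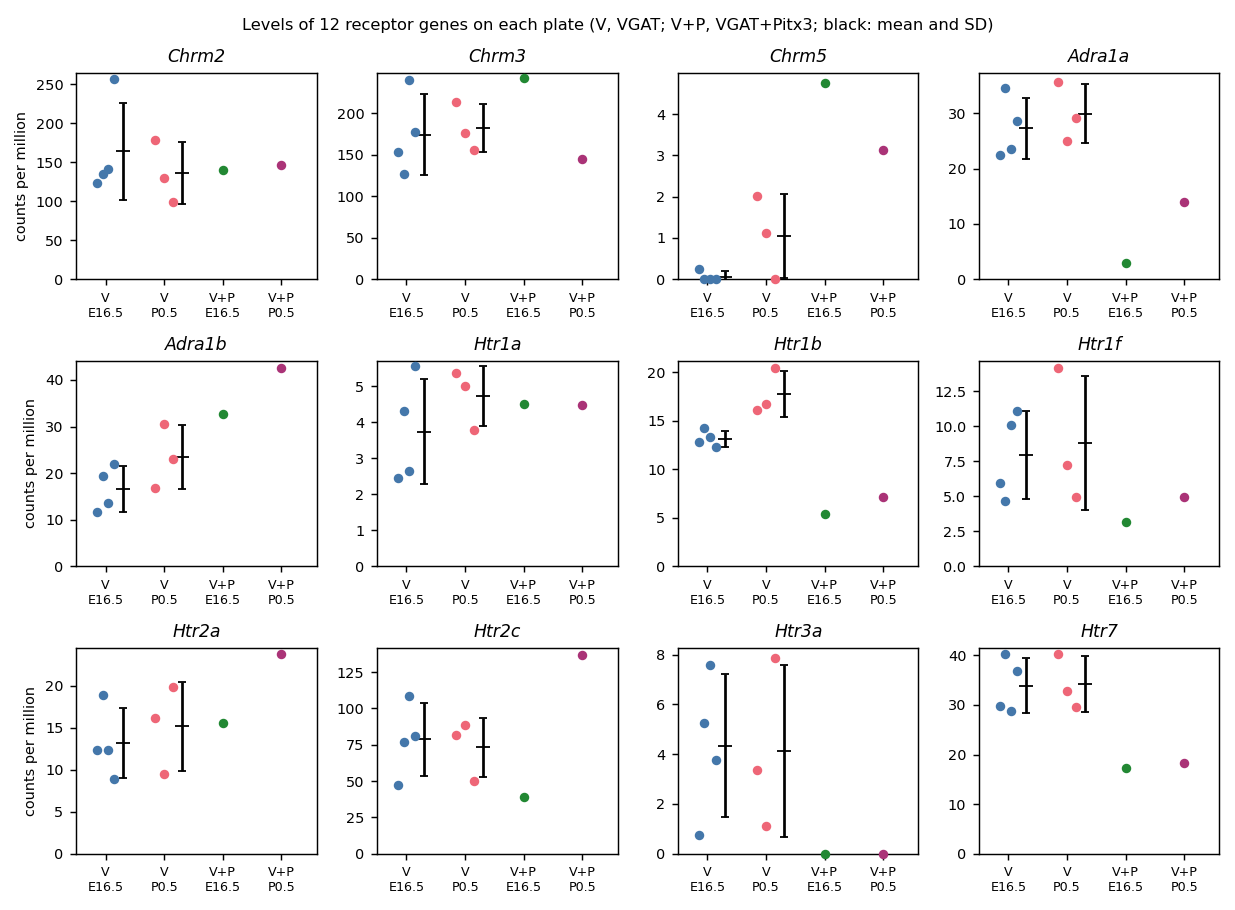
Level of the 12 receptor genes that passed the test in any comparison or were found in at least 10% of cells (CPM, linear axis from 0) in the 4 groups, with a dot per plate and the group's mean and SD in black where it had more than 1 plate. Adra1a, Htr1b and Htr7 were lower on both VGAT+Pitx3 plates than on any VGAT plate, Chrm5 and Adra1b were higher, and Chrm2 and Chrm3 overlapped.

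Genes of 3 related lists were read beside the receptors, against the 8.93% of all genes that passed. Of 35 G proteins and effectors, 31 were tested, 5 passed as higher and 2 as lower in VGAT+Pitx3 cells: Kcnj6, a potassium channel subunit opened by Gi-coupled receptors, was higher (log2 difference 2.35 ± 0.21), while its usual partner Kcnj3 was lower (-1.13 ± 0.20), and adenylyl cyclase Adcy1 was higher (1.10 ± 0.16). Of 17 genes that end receptor signals, 2 passed as higher, among them Rgs6 (1.61 ± 0.12), and 3 as lower, among them Rgs10 (-1.69 ± 0.24). Of 19 genes for transmitter synthesis, transport and breakdown, 12 were tested and 5 were higher, led by the dopamine transporter gene Slc6a3 (9.13 ± 0.27) and the tyrosine hydroxylase gene Th (7.78 ± 0.38) that mark dopaminergic neurons. The median differences of the lists were 0.13, -0.04 and 0.51.

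No receptor gene tested passed for stage in VGAT cells. Between E16.5 and P0.5, 0 of the 18 receptor genes tested passed, against 4.58% of 13639 genes, in edgeR and in DESeq2, and 2 had an unadjusted p under 0.05 in edgeR. These were Hrh2, a Gs-coupled histamine receptor, at 1.97 to 4.75 CPM on E16.5 plates and 4.38 to 9.42 on P0.5 plates (log2 difference 1.02 ± 0.41, adjusted p = 0.151), and Htr1b (0.47 ± 0.19, adjusted p = 0.151), whose levels, given above, did not overlap between the stages. Chrm1, which did not pass the filter on low counts for this test, had 7 counts at E16.5 (0 to 0.935 CPM) and 22 at P0.5 (2.22 to 4.71 CPM), also with no overlap. No other receptor gene was without overlap between the stages. The share of all genes without overlap was not determined, so this describes levels and is no result for stage. The receptor genes' median difference was 0.19 against 0.02 over all genes. Counted on exons alone, Chrm3 was higher at P0.5 (log2 difference 1.06, adjusted p = 0.0397), and its intronic share was 94.97 to 97.2% on E16.5 plates and 90.9 to 94.3% on P0.5 plates. Of the related lists, Rgs4, which shortens Gq and Gi signals, was higher at P0.5 (1.39 ± 0.29), as were acetylcholinesterase Ache (1.72 ± 0.23) and the monoamine transporter Slc22a3 (2.60 ± 0.51), and the receptor kinase Grk5 was lower (-0.71 ± 0.17). None of the 31 G proteins and effectors tested passed. Of the cell type markers, 1 of 3 radial glia genes (summed 36.1 to 52.9 CPM at E16.5 against 32.9 to 308 at P0.5) and 1 of 3 GABAergic genes (1727 to 2007 against 1606 to 2070.0) were higher at P0.5, astrocyte markers, too low to be tested, summed to 0.383 to 5.29 against 3.26 to 124, and their part in the result was not tested. On the 3 plates whose labels agreed in stage, Ache kept its call while Rgs4, Slc22a3 and Grk5 kept their direction without passing, and again 0 receptor genes passed.

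The stage difference of VGAT+Pitx3 cells, with 1 plate at each stage, was compared with that of VGAT cells as an interaction. None of the 15724 genes passed (0% of genes, 998 with an unadjusted p under 0.05, and 3 passing in DESeq2), and so none of the 23 receptor genes, of which 3 had an unadjusted p under 0.05. Htr2c stood at 39.3 CPM on the VGAT+Pitx3 E16.5 plate and 137 on the P0.5 plate, while it ranged over 47.5, 76.9, 109 and 81.3 on VGAT E16.5 plates and 81.4, 88.3 and 49.9 on VGAT P0.5 plates (interaction 1.93 ± 0.52 on the log2 scale, adjusted p = 0.773). Adra1a stood at 2.94 and 13.9 CPM on the same 2 plates, a difference with no replicate of its own (2.10 ± 0.55, adjusted p = 0.773).

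**Figure D4:**
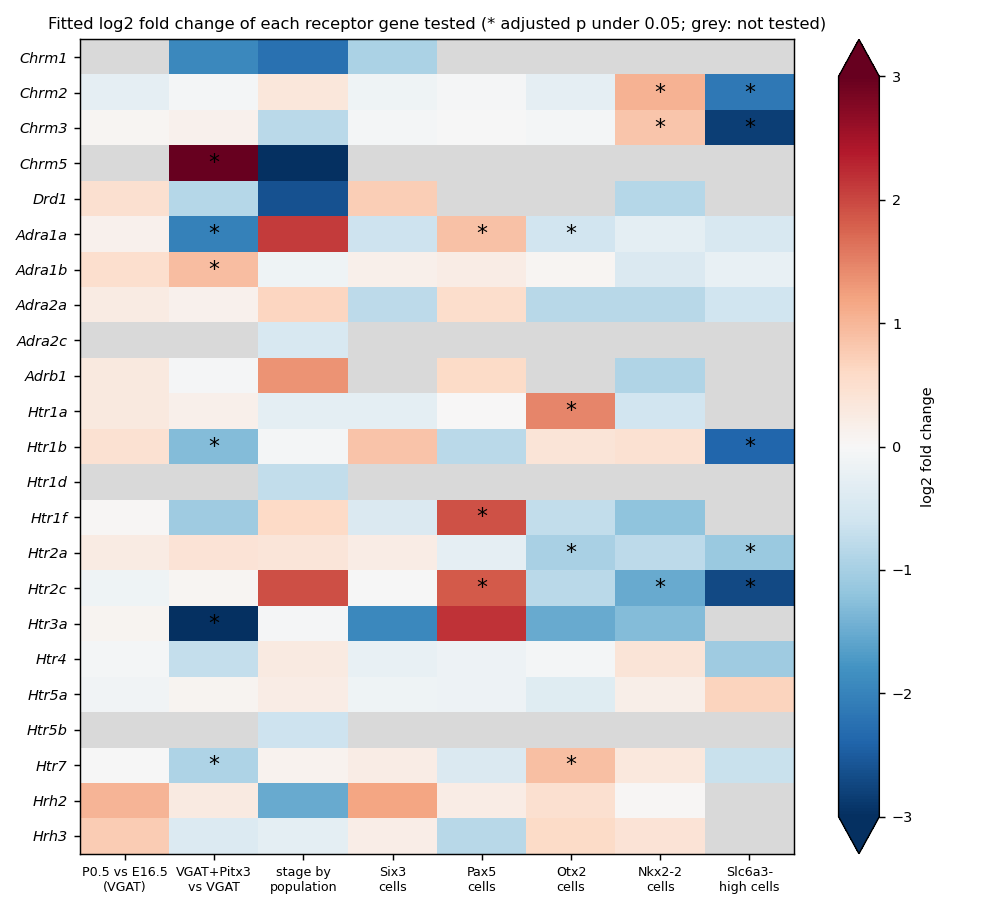
Heat map of the log2 difference of the 23 tested receptor genes (rows) in 8 comparisons (columns), on a colour scale from -3 to 3, with a star for an adjusted p under 0.05 and grey for a gene not tested. Each of the 12 genes with a star had one in some comparisons and not in others, and the columns for stage, for its interaction with sort and for Six3 cells held no star.

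Receptor genes differed between molecular classes of VGAT cells. Cells with a count of a class marker were set against all other cells of the same plate, with the plate as a block, for 4 transcription factor genes that the study used to tell GABAergic neurons apart: Six3 (829 of 1460 VGAT cells), Pax5 (389), Otx2 (398) and Nkx2-2 (532). These classes overlap, since 49.4% of Pax5 cells, 65.3% of Otx2 cells and 59.2% of Nkx2-2 cells also held a Six3 count and 19.2% of Nkx2-2 cells a Pax5 count. Cells with a Six3 or an Nkx2-2 count were deeper than the others on all 7 plates, cells with Pax5 on 6 and cells with Otx2 on 3, and the part of depth in the results was not tested. Levels are CPM within each class.

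Pax5 cells had more Htr2c. Of 17 receptor genes tested, 3 passed, all higher, against 2.92% of 12879 genes in either direction. This count includes Htr1f, which passed the filter on low counts only through Pax5 cells, where it was high. Its call lends the count no support. Htr2c stood at 89.6, 169 and 199.98 CPM in Pax5 cells and at 25.7, 41.5 and 71.7 in the other cells (lowest, median and highest of 7 plates), so every Pax5 value lay above every other value (log2 difference 1.83 ± 0.23, adjusted p = 0.000115). In thinned cells 24.7% ± 6.72 of Pax5 cells held an Htr2c count against 9.85% ± 4.13 of the others. Adra1a was higher in Pax5 cells on 7 of 7 plates, with 27.1, 36.5 and 58.6 CPM against 14.9, 23.8 and 36.3 (0.88 ± 0.15, adjusted p = 0.00217), a call lost with exonic counts alone, and was found in 11.8% ± 5.93 of thinned Pax5 cells against 7.33% ± 3.50 of the others. The Gi-coupled receptor gene Htr1f was higher on 6 of 7 plates (0, 17.3 and 26.9 against 1.35, 3.59 and 19.1, log2 difference 1.90 ± 0.47, adjusted p = 0.0323), and it lost the call without any one of 6 plates. Among the related genes, the potassium channel subunit gene Kcnj5 was higher in Pax5 cells (2.20 ± 0.57), Rgs6 and Rgs8 were higher, and the inositol trisphosphate receptor gene Itpr1 was lower (-0.93 ± 0.17). Of the cell type markers, 1 of 4 astrocyte genes was lower (summed 0 to 41.1 CPM against 0.675 to 153), and 1 of 4 oligodendrocyte lineage genes (28.8 to 62.7 against 26.8 to 73.0) and 1 of 3 neuronal genes (3829 to 5456 against 3599 to 4845) were higher, and their part in the result was not tested.

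Nkx2-2 cells had less Htr2c and more Chrm2 and Chrm3. In them 3 of 18 receptor genes tested passed, against 3.24% of 13349 genes. Htr2c stood at 26.7, 29.7 and 55.7 CPM in Nkx2-2 cells (lowest, median and highest) and at 58.6, 114 and 144 in the other cells, with no overlap (log2 difference -1.52 ± 0.11, adjusted p = 2.5e-06). Chrm2 stood at 153, 199 and 366 in Nkx2-2 cells and 67.8, 107 and 164 in the others, and was higher on 7 of 7 plates (1.04 ± 0.12, adjusted p = 0.000117). Chrm3 stood at 152, 212 and 394 against 89.0, 146 and 161, and was higher on 6 of 7 plates (0.83 ± 0.15, adjusted p = 0.00341), a call lost with exonic counts alone. The first 2 of these calls held under every alternative run. In thinned cells Htr2c was found in 8.78% ± 4.44 of Nkx2-2 cells against 16.6% ± 5.73 of the others and was higher on 1 of 7 plates. Chrm2 was found in 34.6% ± 9.00 against 24.2% ± 5.98, higher on 6 of 7, and Chrm3 in 33.0% ± 5.63 against 27.7% ± 6.15, higher on 5 of 7. Of the related genes, tyrosine hydroxylase Th was lower in Nkx2-2 cells (-2.01 ± 0.50), adenylyl cyclase Adcy2 was lower (-1.06 ± 0.18), as were Rgs4 (-1.18 ± 0.19) and Rgs8, and Grk3 was higher. Of the cell type markers, 2 of 4 microglia genes were lower (summed 2.38 to 21.8 CPM against 0.840 to 61.5), 1 of 6 dopaminergic genes was higher and 1 lower (96.1 to 170.5 against 44.9 to 122), and 1 of 3 GABAergic genes was higher (1688 to 2230 against 1560 to 2043), and their part in the result was not tested.

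Otx2 cells had more Htr7 and less Htr2a and Adra1a. Here 4 of 16 receptor genes tested passed, against 4.64% of 12414 genes. This count includes Htr1a, which passed the filter on low counts only through Otx2 cells, where it was high. Its call lends the count no support. Htr7 stood at 42.7, 51.5 and 71.2 CPM in Otx2 cells and 20.0, 26.7 and 36.5 in the others, with no overlap (log2 difference 0.91 ± 0.13, adjusted p = 0.000173), and 18.8% ± 4.71 of thinned Otx2 cells held a count of it against 8.80% ± 3.17 of the others. Htr2a, a Gq-coupled serotonin receptor gene like Htr2c, was lower in Otx2 cells on 7 of 7 plates, at 4.50, 8.54 and 16.2 against 10.1, 15.3 and 22.9 (-0.98 ± 0.21, adjusted p = 0.00896, lost without VGAT E16.5 replicate 2). Adra1a was lower on 7 of 7 plates as well, at 10.6, 20.6 and 28.2 against 25.5, 31.8 and 42.9 (-0.57 ± 0.13, adjusted p = 0.0143, lost with DESeq2). In thinned cells Adra1a was found in 9.69% ± 8.81 of Otx2 cells against 7.75% ± 3.68 of the others, so the mean share ran the other way, although it was higher in Otx2 cells on only 2 of 7 plates. Htr2a was found in 2.68% ± 1.25 against 4.39% ± 2.25. The Gi-coupled autoreceptor gene Htr1a rested on 105 counts in all, of which Otx2 cells held 55, and was higher on 6 of 7 plates (1.47 ± 0.40, adjusted p = 0.0395), a call lost when any one of 5 plates was left out. Of the related genes, Ddc, which encodes the decarboxylase of dopamine and serotonin synthesis, was higher in Otx2 cells (2.24 ± 0.28), and Rgs4 was lower (-1.08 ± 0.19). Of the cell type markers, 1 of 3 radial glia genes (summed 35.3 to 543 CPM against 19.3 to 243), 1 of 3 GABAergic genes (1738 to 2512 against 1558 to 1956) and 1 of 6 dopaminergic genes (44.2 to 179 against 61.2 to 124) were higher and 1 of 4 microglia genes was lower (0 to 18.5 against 1.85 to 59.2), and their part in the result was not tested.

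Six3 cells differed from the others in no receptor gene past the threshold with both stages in 1 test. Of 18 receptor genes tested, 0 passed in edgeR and in DESeq2, against 0.764% of 12961 genes, and 5 had an unadjusted p under 0.05. Htr1b came closest, at 0.87 ± 0.21 on the log2 scale (adjusted p = 0.0773): per plate it stood at 14.2, 15.4, 17.1 and 15.7 CPM in Six3 cells at E16.5 against 5.38, 12.8, 8.11 and 10.0 in the others, and at 22.9, 17.0 and 30.2 against 6.90, 17.1 and 10.4 at P0.5. Six3 cells were higher on all plates but P0.5 replicate 2. Htr2c had a difference of -0.01.

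Behind this near-zero difference, Htr2c in Six3 cells went one way at E16.5 and the other way at P0.5. At E16.5 it stood at 39.2, 72.5, 89.3 and 56.8 CPM in Six3 cells and 104, 87.0, 141 and 102.5 in the other cells of the same plates, lower in Six3 cells on 4 of 4 plates. At P0.5 it stood at 125, 116 and 75.7 against 20.7, 39.3 and 23.2, higher in Six3 cells on 3 of 3. A test of this difference between stages, added after the values had been seen, gave 2.58 ± 0.27 on the log2 scale (adjusted p = 0.00143), and of 18 receptor genes 2 passed, against 0.0231% of 12961 genes. The other was Chrm3, at 156, 147, 274 and 198 CPM in Six3 cells against 152, 96.7, 197 and 167 in the others at E16.5, and at 151, 158 and 125 against 319, 224 and 193 at P0.5 (-1.09 ± 0.16, adjusted p = 0.0314). On the 3 plates whose labels both gave the same stage, Htr2c was lower in Six3 cells at E16.5 (replicates 1 and 2) and higher at P0.5 (replicate 2). Htr2c passed with each of the 7 plates left out in turn (adjusted p = 0.000891 to 0.0164), and Chrm3 did not pass without VGAT E16.5 replicate 2 or 3 or P0.5 replicate 2 or 3. With exonic counts alone neither gene passed (adjusted p = 0.0513 for Htr2c and 0.977 for Chrm3).

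The share of cells with a Pax5 count, in which Htr2c was higher, is given beside this result. Its part in the result was not tested, and a cell with no Pax5 count may still express Pax5. At E16.5 a Pax5 count was found in 16.6, 27.3, 29.4 and 25.6% of Six3 cells and in 15.2, 31.2, 51.9 and 35.2% of the other cells, and at P0.5 in 20.8, 21.9 and 15% against 25, 23.2 and 7.69%. Among cells with no Pax5 count, Htr2c at E16.5 stood at 18.6, 71.5, 50.3 and 31.0 CPM in Six3 cells against 98.2, 73.0, 18.6 and 20.5 in the others, higher in Six3 cells on 2 of 4 plates. At P0.5 it stood at 99.1, 74.7 and 43.7 against 18.3, 27.4 and 23.0, higher in Six3 cells on 3 of 3 plates. Among cells with a Pax5 count, Htr2c at E16.5 stood at 161, 72.8, 153 and 113 CPM in Six3 cells against 139.8, 111, 226 and 241 in the others, lower in Six3 cells on 3 of 4 plates. At P0.5 it stood at 234, 219 and 225 against 26.99, 71.0 and 32.1, higher on 3 of 3, on as few as 5 cells a value. Chrm3 in cells with no Pax5 count was lower in Six3 cells on the 3 P0.5 plates (153, 168 and 106 against 296, 233 and 193) and higher on 3 of 4 E16.5 plates.

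The same test between stages was run for the other markers. For Otx2 cells 1 of 16 receptor genes passed, against 0.0242% of 12414 genes: Chrm3, on the threshold, at 186, 146, 263 and 209 CPM in Otx2 cells against 139, 121, 238 and 170.0 in the others at E16.5, and at 126, 156 and 91.3 against 270.3, 186 and 175 at P0.5 (-1.06 ± 0.17, adjusted p = 0.04998). It passed without VGAT E16.5 replicate 2 or P0.5 replicate 2 but not without any other plate. For Pax5 cells 0 of 17 receptor genes passed, as did 0% of 12879 genes (799 with an unadjusted p under 0.05 and 1 passing in DESeq2), and for Nkx2-2 cells 0 of 18, with 0% of 13349 genes (871 and 5). The Htr2c differences by Pax5 and by Nkx2-2 kept their direction on every plate of both stages.

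**Figure D5:**
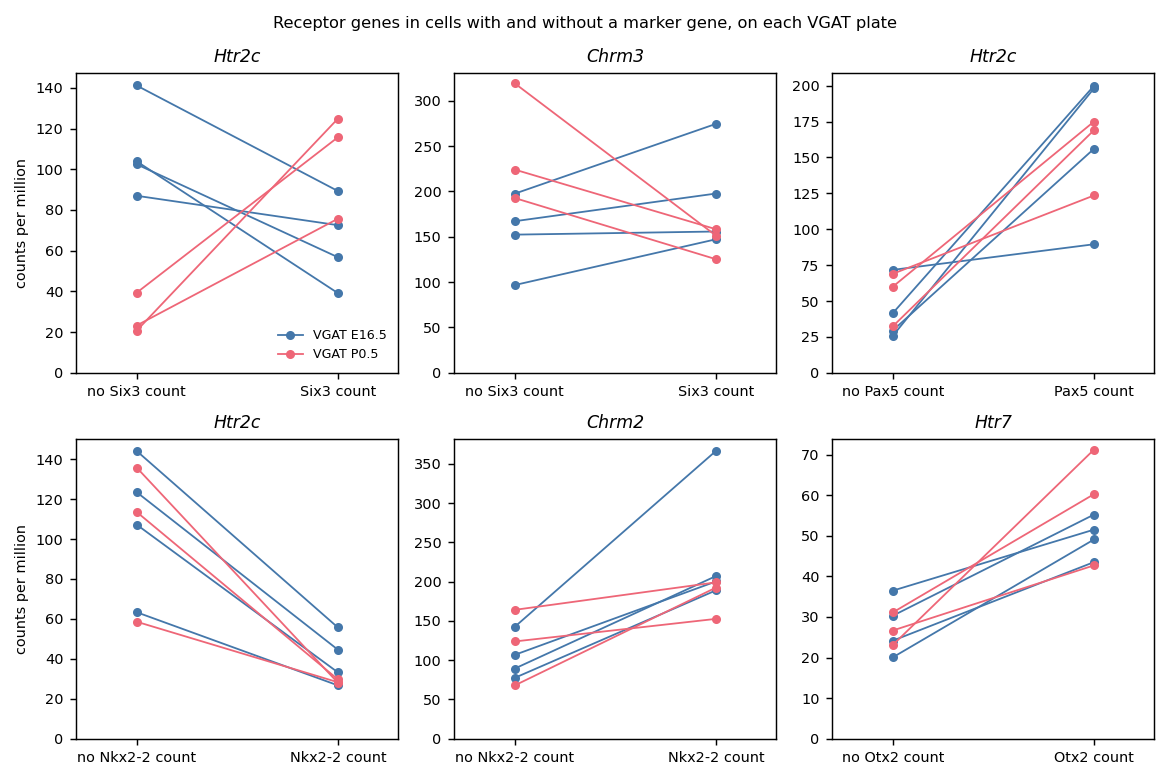
Level (CPM) of receptor genes in cells with and without a count of a class marker, in 6 panels, with a line joining the 2 values of each VGAT plate and colours for the stage. The lines for Htr2c by Pax5 and by Nkx2-2 ran in one direction at both stages, while the Htr2c lines by Six3 fell at E16.5 and rose at P0.5.

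Within the VGAT+Pitx3 sort, cells with more of the dopamine transporter held less of 5 receptor genes. Cells at or above their plate's median of Slc6a3 per total count (288 of 575) were set against those below it, on 2 plates. With 2 plates, little spread could be estimated for a gene by itself. The errors and p-values here therefore rest mostly on spread borrowed from other genes. Of 11 receptor genes tested, 5 passed, all lower, against 7.68% of 11479 genes in either direction. The receptor genes' median log2 difference was -1.06 against 0.02 over all genes. The count of 5 includes Htr1b, which passed the filter on low counts only through cells below the median, where it was high. Its call lends the count no support. Chrm3 stood at 43.6 CPM in cells at or above the median and 455 in cells below it at E16.5, and at 56.6 and 239 at P0.5 (log2 difference -2.82 ± 0.22, adjusted p = 1.48e-07). Htr2c stood at 7.82 and 73.0 at E16.5 and 44.5 and 236 at P0.5 (-2.70 ± 0.20, adjusted p = 9.9e-08). Both genes were lower in cells above the median on both plates, with no overlap.

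Chrm2 stood at 32.1 against 254 at E16.5 and 85.7 against 208 at P0.5 (-2.15 ± 0.26, adjusted p = 1.83e-05), Htr1b at 1.23 against 9.89 and 3.23 against 11.3 (-2.38 ± 0.60, adjusted p = 0.0184) and Htr2a at 7.82 against 23.6 and 18.6 against 28.4 (-1.12 ± 0.33, adjusted p = 0.0475). DESeq2 kept 2 of the 5 calls, those of Chrm3 and Htr2c. Without the plate block only the call of Chrm3 held, and with exonic counts alone the call of Htr2a was lost. Adra1b did not pass (32.1 against 31.6 and 34.0 against 50.1), and Chrm5, not tested here, had 17 and 6 counts in cells above the median and 4 and 1 in those below. Beside these differences, summed GABAergic markers (3 genes) stood at 299 to 621 CPM above the median and 2098 to 2106 below it, glutamatergic markers (3 genes) at 25.9 to 129 against 195 to 292, and dopaminergic markers without Slc6a3 (5 genes) at 2443 to 3477 against 1036 to 1358. Of 3 neuronal markers 1 was higher (summed 4419 to 5156 against 3754 to 3888.5). Of 3 radial glia markers 1 was lower (118 to 124 against 148 to 287), as was 1 of 4 oligodendrocyte lineage markers (17.3 to 63.0 against 52.8 to 56.7). Their part in the receptor differences was not tested. The regulators Rgs6 (2.38 ± 0.16) and Kcnj6 (1.08 ± 0.16) were higher and Kcnj3 (-1.54 ± 0.30) and Adcy8 (-2.13 ± 0.28) lower in cells above the median.

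The remaining receptor genes passed in no comparison. Over the 8 comparisons 23 receptor genes were tested at least once, 12 passed in at least 1 and 11 in none. The share of all genes that passed in at least 1 comparison was not determined, so these counts are no result about the receptor genes. Adra2c, Htr1d and Htr5b were tested only in the interaction, where no gene passed. Among the 11 that passed in none was Adra2a, whose log2 difference was -0.78 ± 0.22 in Six3 cells (unadjusted p = 0.00242, adjusted p = 0.15), -0.83 ± 0.24 in Nkx2-2 cells (0.00316 and 0.0801) and -0.84 ± 0.26 in Otx2 cells (0.00497 and 0.0874), each against the other cells of the plates in edgeR. It stood lower in Six3 cells on 7 of 7 plates and in Nkx2-2 and Otx2 cells on 6 of 7. Htr5a, a Gi-coupled receptor, stood at 8.62 to 14.3 CPM on all 9 plates. The histamine autoreceptor gene Hrh3 stood at 2.06 to 5.38, the β1-adrenergic receptor gene Adrb1 at 0 to 4.93, Drd1 at 0.449 to 5.38 and Htr1d at 0.246 to 2.63. Drd3, Drd4, Drd5 and Hrh1 were tested in no comparison, and none exceeded 2.22 CPM on any plate, so that differences in them were not detectable at this depth.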

How the data were processed

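Ventral midbrain cells with the 3 reporter alleles were sorted into 9 plates and sequenced by a CEL-seq2 protocol with molecular barcodes. The authors mapped reads with STAR (genome build mm10 in the submitters' processing notes) and deposited 3 tables of estimated counts per gene and well (total, exonic and intronic), in which the number of distinct barcodes had been corrected for collisions: 100% of non-zero values matched that correction for 6 random bases within 0.001, and 51.7% were not whole. Of 3455 wells, 2035 passed as cells on 3 criteria, a minimum of 2000 genes, a maximum of 50000 counts and less than 15% mitochondrial counts. Total estimated counts were summed over the cells of a plate or of a marker class, rounded, and tested with edgeR 4.0.16 (R 4.3.3) by the quasi-likelihood test with filterByExpr, TMM scaling and Benjamini-Hochberg adjustment over all genes tested, at a threshold of 0.05. Marker classes were compared with the plate as a block. Errors of log2 differences are standard errors from that test, and levels are CPM with TMM factors. DESeq2 1.42.0, exonic counts, other filters, other marker cut-offs and leaving out each plate were alternatives.

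Genes were given with per-plate values if they passed any test or were found in at least 10% of cells thinned to 4000 counts (79 shallower cells left out). From each list of related genes at most 6 that passed were eligible for naming in a comparison, by size of the difference. The receptor genes, lists and tests were chosen with earlier results of these data known. The tests between stages for marker classes, the restriction to plates with like labels and the removal of cells with glial markers were added after seeing the data. Nothing in the labels says that plates came from separate litters, so p-values for stage and sort measure the spread between these plates, which may be technical. With the plate as a block, p-values for marker classes and Slc6a3 measure how the difference within a plate varied from plate to plate. Intervals and limits cover counting error only. On simulated counts with 200 genes changed by a log2 difference of 2, the tests recovered 94.0% for stage, 91.0% for sort, 58.0% for their interaction, 97.5% for Six3, 93.5% for Pax5, 95.5% for Otx2, 97.5% for Nkx2-2 and 87.5% for Slc6a3, and 74.5 to 82.5% for marker classes between stages. Gene positions came from the GRCm38 annotation.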

Additional observations from a re-analysis of the deposited data

Results flagged for a closer look

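Chrm2 stood at 256 CPM on VGAT E16.5 replicate 4, apart from the 123 to 142 of the other 3 plates of its group. The only Chrm5 count of the VGAT E16.5 group was on replicate 1 (0.246 CPM), against 0 on the other 3 plates. The difference in Htr7 between Otx2 cells and the other cells was 48.1 CPM on VGAT P0.5 replicate 2, above those of the other 6 VGAT plates. These were the 3 groups with a plate far from the others among 34 looked at. Levels and shares of the same gene were looked at as separate groups. Chance flags about 1 in 20 where values are normally spread, which does not hold for counts near 0 such as those of Chrm5.

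For 3 pairs of a gene and a marker class, every plate of one stage moved one way and every plate of the other stage the opposite way, or the test of the difference between stages passed. Htr2c in Six3 cells differed from the other cells by -44.2 CPM on average at E16.5 and by 77.7 at P0.5, and Chrm3 in Six3 cells by 40.3 and -100.3. Chrm3 in Otx2 cells differed by 33.7 at E16.5 and by -86.1 at P0.5. The tests of these differences were added after seeing the data, and their values stand with the results of Six3 and Otx2 cells.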

How the results depend on the processing

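The 12 receptor genes that passed made 21 calls over the comparisons, and 6 of these held under every alternative run: Htr1b by sort, Htr2c by Pax5, Htr2c and Chrm2 by Nkx2-2, Htr7 by Otx2 and Chrm3 by Slc6a3. None of these 21 calls changed direction under an alternative run. The 21 include Chrm5 and Htr3a by sort, Htr1f by Pax5, Htr1a by Otx2 and Htr1b by Slc6a3. These genes passed the filter on low counts only through the group in which they were high. For the other calls the cause of a loss was not tested.

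Counts of genes past the threshold moved more. For stage in VGAT cells, 944 genes passed with DESeq2, 1588 with no filter on low counts and 226 with the replicate number as a block, and 76 (without P0.5 replicate 3) to 833 with a plate left out, and 1 receptor gene passed with no filter and 1 with exonic counts, where 472 genes passed. For sort, 625 to 1397 genes and 1 to 7 receptor genes passed with a plate left out. For the interaction, 3 genes passed with DESeq2 and 66 with no filter, the latter with 1 receptor gene, and it could not be fitted without either VGAT+Pitx3 plate. With no filter, 399 genes and 3 receptor genes passed for Six3, 691 and 5 for Pax5, 929 and 7 for Otx2 and 772 and 7 for Nkx2-2. With no plate block, 5 genes passed for Six3, 70 for Pax5 (1 receptor gene), 145 for Otx2 (1), 62 for Nkx2-2 and 122 for Slc6a3 (1). With at least 2 counts of the marker, 232 genes and 2 receptor genes passed for Six3, 650 and 5 for Pax5, and 566 and 5 for Nkx2-2. With exonic counts 114 genes and 1 receptor gene passed for Six3, and with DESeq2 280 genes and 2 receptor genes for Slc6a3, whose 2 plates allowed none to be left out. With a plate left out, 49 (without E16.5 replicate 4) to 128 genes and 0 to 2 receptor genes passed for Six3, 232 (without E16.5 replicate 3) to 480 genes for Pax5, 373 (without E16.5 replicate 4) to 633 genes and 2 to 4 receptor genes for Otx2, and 264 (without E16.5 replicate 3) to 432 genes for Nkx2-2.

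For the differences between stages, exonic counts left 0 genes and 0 receptor genes for Six3 and 1 gene and 0 receptor genes for Otx2. DESeq2 gave 1 gene for Pax5, 5 for Nkx2-2 and 3 for Otx2, 2 of them receptor genes. With a plate left out the counts were 1 to 8 genes and 1 to 2 receptor genes for Six3, 0 to 5 genes for Pax5, 0 to 9 genes and 0 to 1 receptor genes for Otx2 and 0 to 10 genes for Nkx2-2. The number of receptor genes in at least 10% of cells was 9 in cells thinned to 8000 counts and 11 in unthinned cells.

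Replicate numbers did not pair the VGAT plates: same-numbered plates correlated at 0.033, 0.025 and 0.032 in their deviations from the stage means. With the number as a block, 0 receptor genes passed for stage and 4 for sort, where 914 genes passed and the calls of Chrm5 (adjusted p = 0.384) and Htr3a were lost. Plates at 1 per stage in the VGAT+Pitx3 sort and 2 labels per cell limit the comparisons of sort and stage, and genes with fewer than about 3 counts a plate could not be compared.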
